A study of Mus musculus with 8 samples.

Results

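Transcripts of 8 Krüppel-like factor (KLF) genes, Klf2, Klf3, Klf4, Klf6, Klf7, Klf10, Klf12 and Klf13, were examined in CD4+ T cells from mice of 2 retrogenic lines, the clones ANT and SAS. The 8 genes were taken by symbol from the 39056 counted genes, and 7 of them passed the low-count filter that left 12619 genes to test. Retrogenic mice carry bone marrow whose T cells take their receptor from a retrovirus: here C57BL/6J mice received marrow of the genotype CD4-Cre TCRβtg Tcra-/- that had been transduced with either the ANT TCRα or the SAS TCRα chain. All libraries thus share Cre recombinase under Cd4 control, a T cell receptor (TCR) beta transgene and the loss of the endogenous TCR alpha gene, and the clones differ in the supplied alpha chain. CD4+ cells were sorted from spleen and lymph nodes, which were pooled, and each clone had 4 libraries, numbered 1, 3, 4 and 5 for ANT and 1, 2, 3 and 6 for SAS. The age of the mice and the number of mice behind a library are not given in the sources used here, so the p-values measure the spread between these libraries, which may be partly technical. The receptor is expressed from a vector, and sorted cells were compared in bulk, so fewer cells with a transcript and less of it per cell cannot be told apart.

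KLF proteins are transcription factors that bind GC-rich and CACCC-type DNA through zinc fingers at their C-terminal end, and relatives of the SP family bind similar sites. In T cells KLF2 is known as a factor of quiescence and recirculation: it drives genes for exit from lymphoid organs, is high in resting cells, and is shut down after TCR stimulation. Loss of KLF2 is known to favour T follicular helper (Tfh) differentiation, the state named in the series title. Other members act as repressors through corepressors (KLF3 and KLF12 bind CtBP, KLF10 and KLF13 bind Sin3A), and Klf4, Klf6 and Klf10 are also known as rapidly inducible genes.

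Libraries held 27600959 to 31810799 counts. The T cell markers Cd3e and Cd4 stood at 448 to 544 and 857 to 1008 CPM (counts scaled to library size) in all 8 libraries. The variable segment Trav9-4, taken here to mark the SAS receptor, stood at 20.9 to 34.4 CPM in SAS and 0.108 to 0.698 CPM in ANT. No segment of the ANT receptor was checked, so ANT libraries were told apart only by its low level. Summed CPM of the marker lists for B cells were 1.28 to 2.90 in ANT and 1.38 to 3.19 in SAS, for myeloid cells 4.30 to 7.38 and 4.18 to 10.3, and for erythroid cells 0.690 to 10.8 and 0.899 to 4.94. The CD8 markers summed to 14.1 to 66.8 CPM in ANT against 1.99 to 4.49 in SAS. Of 3 tested genes of the NK list, 1 was higher in ANT and 2 in SAS. Klrd1 stood at 9.23 to 21.0 CPM in ANT against 0.335 to 0.666 CPM in SAS. Eomes, which T cells also express, stood at 0.478 to 0.862 against 136 to 171 CPM. The scarce Klrb1c had a log2 fold change, SAS minus ANT, of 4.33. The part of these cells in the KLF values was not tested. The NK markers Ncr1 and Klra8 and the dendritic cell marker Xcr1 had 0 counts in all 8 libraries. Summed CPM of all 5 dendritic cell markers was 0.216 to 0.515 in ANT and 0.418 to 0.841 in SAS. In a principal component analysis, the component with 73.7% of the variance separated the clones. The next, with 10.6%, placed ANT replicates 1 and 3 and SAS replicates 1 and 6 on one side (10.7 to 26.6) and ANT replicates 4 and 5 and SAS replicates 2 and 3 on the other (-4.42 to -31.3).

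SAS libraries had fewer Klf3, Klf6, Klf7 and Klf13 transcripts than ANT libraries and more Klf10 transcripts, while Klf2 and Klf4 did not pass the test. At an adjusted p under 0.05, SAS was lower than ANT for 4 of the 7 tested members and higher for 1, with 2 left uncalled (edgeR's quasi-likelihood test, Benjamini-Hochberg adjusted over all genes tested). Over all genes 37.4% were called in either direction, 17.7% higher in ANT and 19.8% higher in SAS. The median log2 fold change, SAS minus ANT, was -0.87 over the 7 members and -0.00 over all genes tested. Both clones' libraries were fully separated for 3 of the 7, Klf3, Klf7 and Klf10, where 38.1% of all genes tested were separated. These counts were not stable: 3 members were called without ANT replicate 4, ANT replicate 5, SAS replicate 1 or SAS replicate 6, each time Klf3, Klf7 and Klf10.

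**Figure D1:**
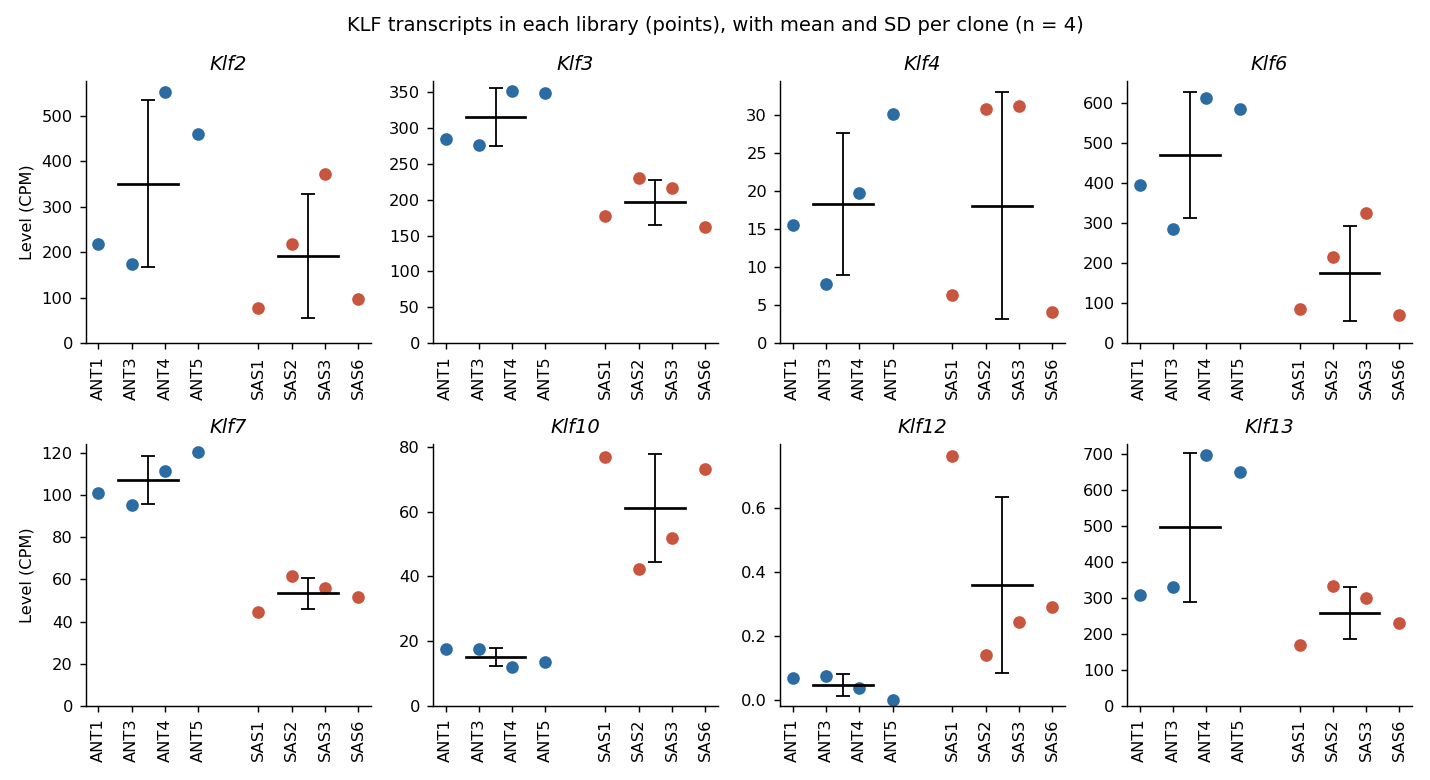
CPM of each KLF gene (y axis, from 0, its own scale in each panel) in each library (x axis; ANT blue, SAS red), with the mean (line) and SD (bar) of 4 libraries per clone. Klf3, Klf7 and Klf10 separated the clones, whereas in Klf2, Klf4 and Klf6 SAS replicates 2 and 3 reached into or near the ANT range.

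Klf10 was the only tested member with more transcripts in SAS. It encodes a repressor, also called TIEG1, that is induced by TGF-beta and acts in TGF-beta signalling and regulatory T cells. Klf10 (chromosome 15, 38291463 to 38300706, minus strand, mm10) stood at 17.6, 17.6, 12.0 and 13.5 CPM in ANT (replicates 1, 3, 4 and 5, in this order as for every gene that follows), compared with 76.9, 42.3, 51.7 and 73.1 CPM in SAS (replicates 1, 2, 3 and 6). Every SAS library was above every ANT library. The means were 15.2 ± 2.86 and 61.0 ± 16.7 CPM (SD, n = 4), a 4.02-fold difference (log2 fold change 2.01, SE 0.21, edgeR adjusted p 4.59e-05).

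Klf7, a family member that restrains cell cycle entry in several cell types, showed the opposite direction with little spread. Klf7 (chromosome 1, 64029447 to 64122282, minus strand) stood at 101, 95.2, 111 and 120 CPM in ANT and at 44.5, 61.6, 56.0 and 51.6 CPM in SAS, in the same library order. The lowest ANT library was above the highest SAS library. Mean levels were 107 ± 11.2 and 53.4 ± 7.24 CPM (n = 4), a 2.00-fold difference, and the log2 fold change had a 95% interval of -1.28 to -0.73 (edgeR adjusted p 0.00014). Its exons share 3196 bases with the opposite-strand gene Gm26649, which had 7 counts or fewer in each library.

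Klf3 encodes a CtBP-dependent repressor that is itself a target of activating KLF proteins in other cell types and that shapes lymphocyte homing. Klf3 (chromosome 5, 64803388 to 64832901, plus strand) stood at 285, 275, 352 and 347 CPM in ANT and at 177, 230, 215 and 162 CPM in SAS. The libraries of the clones did not overlap. Klf3 averaged 315 ± 40.3 against 196 ± 31.9 CPM (n = 4), 1.61-fold more in ANT; its log2 fold change was -0.68 (SE 0.14, edgeR adjusted p 0.00331). Against a fold of 1.5 it was not called (adjusted p 0.395), whereas Klf7 and Klf10 were.

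Klf6 and Klf13 were higher in ANT on average, but their libraries overlapped. Klf6 is a widely expressed activator that is induced early after stimulation. Klf6 (chromosome 13, 5861482 to 5870394, plus strand) stood at 394, 286, 612 and 586 CPM in ANT and at 85.2, 216, 325 and 71.5 CPM in SAS. SAS replicate 3 lay above ANT replicate 3, and the SAS libraries spanned 4.54-fold. Klf6 averaged 470 ± 156 against 174 ± 120 CPM (n = 4), and its log2 fold change was -1.43 (SE 0.46, edgeR adjusted p 0.0312, 2.69-fold more in ANT), the largest of the 7 in the direction of ANT. Its call did not hold without ANT replicate 1 (adjusted p 0.064), ANT replicate 4 (0.0678), ANT replicate 5 (0.0922), SAS replicate 1 (0.0685) or SAS replicate 6 (0.0635), with log2 fold changes of -1.17 to -1.51.

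Klf13, also called RFLAT-1, is known as a regulator of the chemokine gene Ccl5 in T cells. Klf13 (chromosome 7, 63886351 to 63938915, minus strand) stood at 307, 330, 697 and 649 CPM in ANT and at 171, 333, 299 and 231 CPM in SAS. ANT replicates 4 and 5 lay far above the rest, while SAS replicate 2 lay above ANT replicates 1 and 3. Klf13 averaged 496 ± 206 against 258 ± 72.2 CPM (n = 4), 1.92-fold more in ANT (log2 fold change -0.94, SE 0.30, edgeR adjusted p 0.0313). Its call did not hold without ANT replicate 4 (adjusted p 0.074), ANT replicate 5 (0.0732), SAS replicate 1 (0.0754), SAS replicate 3 (0.0528) or SAS replicate 6 (0.0796), and without ANT replicates 4 and 5 together the log2 fold change was -0.33 (adjusted p 0.298).

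Klf2, the quiescence factor, was the member with the highest level per length and did not pass the test. Klf2 (chromosome 8, 72319033 to 72321656, plus strand) stood at 218, 174, 552 and 460 CPM in ANT and at 77.5, 218, 373 and 98.3 CPM in SAS. SAS replicate 3 exceeded ANT replicates 1 and 3, and SAS replicate 2 was level with ANT replicate 1. Klf2 averaged 351 ± 184 against 192 ± 136 CPM (n = 4). The log2 fold change was -0.87 (SE 0.51, edgeR adjusted p 0.208), with a 95% interval of -2.01 to 0.26, so neither no difference nor a 4-fold lower level in SAS lay outside it. It went to -0.06 without ANT replicates 4 and 5 and to -1.42 without SAS replicate 3 (adjusted p 0.954 and 0.0526).

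Klf4, a close relative of Klf2 that restrains proliferation of naive T cells and is abundant in myeloid cells, was scarce and showed no direction. Klf4 (chromosome 4, 55527143 to 55532466, minus strand) stood at 15.6, 7.79, 19.7 and 30.2 CPM in ANT and at 6.30, 30.7, 31.1 and 4.11 CPM in SAS. SAS libraries formed a low and a high pair that enclosed all 4 ANT values. The means were 18.3 ± 9.32 and 18.1 ± 14.9 CPM (n = 4), and the log2 fold change of -0.02 had a 95% interval of -1.41 to 1.36 (edgeR adjusted p 0.982). Summed CPM of the 8 myeloid markers was 10.3 in SAS replicate 2 and 4.18 in SAS replicate 3, the libraries with the most Klf4 in SAS, and 4.66 and 5.40 in SAS replicates 1 and 6.

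Klf12, a CtBP-binding repressor, was nearly absent. It had 2, 2, 1 and 0 counts in ANT and 25, 4, 7 and 9 counts in SAS and did not pass the low-count filter. The library-scaled ratio of its 45 SAS counts to its 5 ANT counts was 8.37, with a 95% counting interval of 3.33 to 27.0, and 5.10 without SAS replicate 1. With no low-count filter edgeR called it (log2 fold change 2.88, SE 0.84, adjusted p 0.0271 over 22194 genes). The interval covers counting error only.

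Per exon length, the 8 genes spanned a wide range of levels, in length-scaled values (FPKM, CPM divided by the exon length). Klf2 led in all 8 libraries, with 190 ± 99.4 FPKM in ANT and 104 ± 73.5 in SAS (SD, n = 4). In ANT it was followed by Klf6 (107 ± 35.6), Klf13 (65.8 ± 27.3), Klf3 (24.5 to 31.3), Klf7 (13.2 ± 1.38), Klf4 (6.00 ± 3.06), Klf10 (3.63 ± 0.683) and Klf12 (0.00639 ± 0.00488). In SAS, Klf6 (39.7 ± 27.2) and Klf13 (34.3 ± 9.59) were within their spread of each other. Klf10 (14.6 ± 3.99) stood near Klf3 (17.4 ± 2.84) and above Klf7 (6.57 ± 0.890) and Klf4 (5.92 ± 4.88), which lay within their spread of each other. Klf2 made up 38.3% to 51.1% of the summed FPKM of the 8 members in ANT libraries and 33.4% to 55.4% in SAS libraries. Klf10 made up 0.492% to 1.71% in ANT and 3.40% to 14.6% in SAS, and the summed FPKM itself was 246 to 585 in ANT and 126 to 364 in SAS.

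The spread within a clone differed widely between the members, without a clear gap. The pooled within-clone SD of log2 CPM was 1.21 for Klf4, 0.93 for Klf2 and 0.83 for Klf6, against a median of 0.24 over all genes tested. These values stood at percentiles 99.0, 98.1 and 97.2 of all genes tested, and at 100, 99.7 and 99.4 among the genes of the same decile of mean level. Klf13 (0.54, percentile 98.4 in its decile) and Klf10 (0.35, percentile 90.6) were less variable than these but still high in their deciles. Klf3 and Klf7, at 0.21 and 0.18, stood at percentiles 57.8 and 45.6 of their deciles. The clone difference was 5.73 times the pooled SD for Klf10, 5.68 for Klf7 and 3.21 for Klf3, and 1.73, 1.75 and 0.93 times for Klf6, Klf13 and Klf2.

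**Figure D2:**
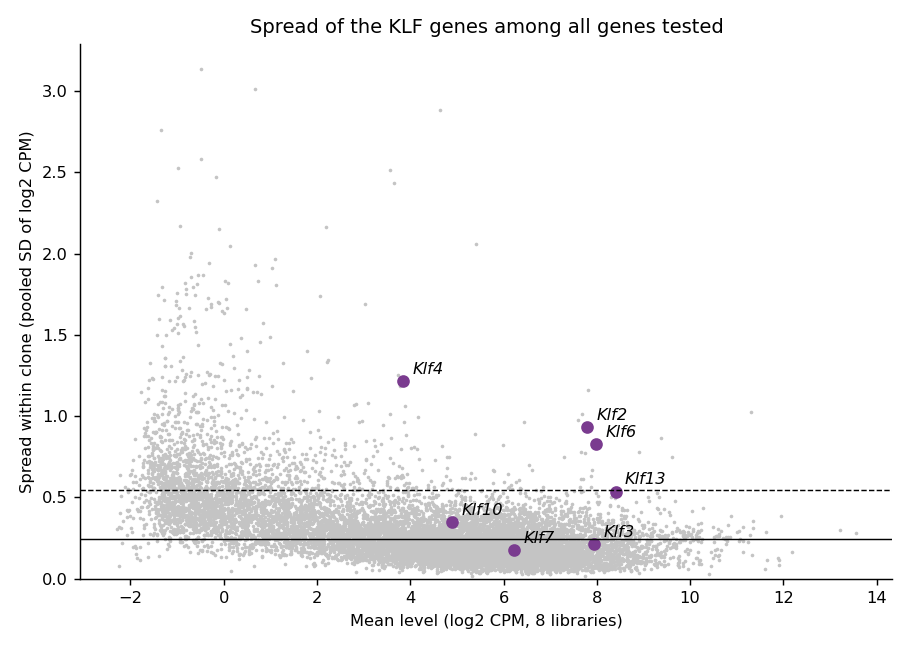
Pooled within-clone SD of log2 CPM (y axis) against the mean log2 CPM over 8 libraries (x axis) for each gene tested (grey), with the 7 tested KLF genes in purple; the solid line is the median of all genes (0.24) and the dashed line their 90th percentile (0.55). Klf4, Klf2 and Klf6 lie above the dashed line, Klf13 just under it, and Klf3 and Klf7 below the median.

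The same libraries were high for nearly all members. Klf2, Klf3, Klf4, Klf6, Klf7 and Klf13 were each higher in ANT replicates 4 and 5 than in ANT replicates 1 and 3, and higher in SAS replicates 2 and 3 than in SAS replicates 1 and 6. Klf10 had exactly the opposite order. That order was noticed in these data, and it is the split of the component with 10.6% of the variance. Of all genes tested, 17.4% had the order of the 6 members and 17.4% had that of Klf10. Mitochondrial transcripts took 2.54% and 2.44% of counts in ANT replicates 1 and 3 and 1.62% and 1.54% in ANT replicates 4 and 5. In SAS replicates 1, 2, 3 and 6 they took 2.04%, 1.56%, 1.94% and 1.76%. Ribosomal protein transcripts took 9.18%, 8.95%, 7.27% and 6.10% in ANT and 6.84%, 4.92%, 5.64% and 5.53% in SAS. Summed erythroid markers were 4.94 and 10.8 CPM in ANT replicates 4 and 5 and 4.94 CPM in SAS replicate 2, against 0.690 to 1.58 CPM in the other 5 libraries. The part of these measures in the KLF values was not tested.

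The genes nearest in pattern to the most variable members within clones were listed. Of the 15 places in the lists of Klf2, Klf4 and Klf6, 7 were held by genes of the immediate early list and 8 by other genes. Immediate early genes are known to respond quickly to TCR signals and to cell handling. Junb and Rhob, and likewise Klf6 and Dnajb9, held places in more than a single list, so the places are not separate genes. The measure used favours genes whose deviations are of similar size. The share of immediate early genes among all candidates was not counted, and whether they held more places than other genes was not tested. Likeness was measured as the root mean square difference (RMS, in log2 units) between the deviations of 2 genes from their clone means over the 8 libraries, among 8170 protein-coding genes with a mean of at least 10 CPM. Klf2, whose own deviations had an RMS of 0.81, was nearest to Jund (RMS difference 0.10), then Junb (0.16), H2afx (0.23), Klf6 (0.25) and Prr7 (0.26). Jund, an AP-1 subunit, stood at 163, 132, 494 and 416 CPM in ANT and 75.2, 185, 340 and 89.6 CPM in SAS. Its libraries thus had the same order as for Klf2 within each clone. Klf4, with an RMS of 1.05, was nearest to the AP-1 gene Fosb (0.19), then Rhob (0.40), Sik1 (0.41), Klf6 (0.41) and Dnajb9 (0.45). Klf6, with an RMS of 0.72, was nearest to Rhob (0.17), Dnajb9 (0.21), Jun (0.21), Junb (0.21) and Hist1h1c (0.23). These are descriptions over 8 libraries that share their depth and the split above.

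**Figure D3:**
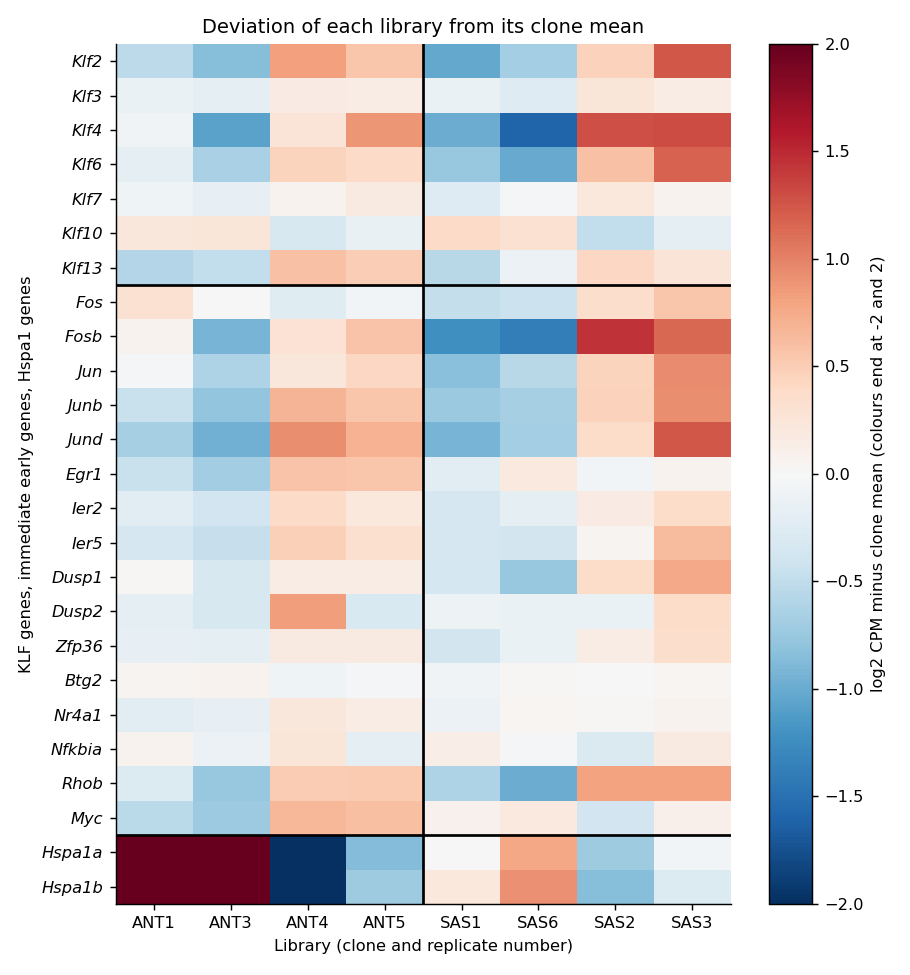
Log2 CPM of each library minus its clone mean (colour, red high and blue low) for the 7 tested KLF genes, the 16 tested immediate early genes, and Hspa1a and Hspa1b (rows), by library (columns; SAS replicate 6 is drawn beside SAS replicate 1 to show the shared order). Klf2, Klf4 and Klf6 share their dark columns with Fosb, Jun, Junb, Jund and Rhob, while Klf10 shows the opposite colours; the Hspa1 genes do so mainly in ANT, and Hspa1a is near 0 in SAS replicates 1 and 3.

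Immediate early genes did not move between the clones as a block. Of the 16 tested of 18 listed, SAS was higher for 3, ANT for 4, and 9 did not pass, with a median log2 fold change of -0.14. The library order of Klf2 was found in 9 of the 16. Over all genes tested, 37.4% were called in either direction and 17.4% had that order. Their summed level was 3388 to 5518 CPM in ANT and 3788 to 6400 CPM in SAS. The TCR-induced Nr4a1 (log2 fold change 3.67, edgeR adjusted p 5.31e-08) and Egr1 (2.18, 0.000174) were higher in SAS, whereas Jun (-1.70, 0.00536) and the antiproliferative gene Btg2 (-0.72, 0.000111) were higher in ANT. Nr4a1 spanned 1211 to 1374 CPM over the 4 SAS libraries, in which Klf2 spanned 77.5 to 373 CPM and Klf4 4.11 to 31.1 CPM. In ANT, both Nr4a1 and Egr1 were higher in replicates 4 and 5 than in replicates 1 and 3, as Klf2 was. Their log2 deviations from the ANT mean were -0.22, -0.16, 0.23 and 0.15 for Nr4a1 and -0.45, -0.69, 0.58 and 0.56 for Egr1. The part of TCR signals in the KLF spread was not tested. Of 9 tested heat shock genes, 3 had the opposite order of libraries, as Klf10 did and 17.4% of all genes tested, and 6 had neither order. Hspa1a, picked out after its values were seen, stood at 102, 82.0, 0.505 and 7.51 CPM in ANT and 10.2, 6.17, 9.77 and 17.5 CPM in SAS, so that its split was wide in ANT and narrow in SAS. Hsph1 went the other way in ANT, with log2 deviations from the clone mean of -0.78, -1.61, 0.99 and 1.40, and stayed at -0.05 to 0.07 in SAS. Dnaja1, Hspd1 and Hsp90aa1 were also higher in ANT replicates 4 and 5 than in ANT replicates 1 and 3. Heat shock genes thus had no common direction in ANT. Between the clones, Hspd1 was higher in SAS (log2 fold change 0.80, adjusted p 0.0059) and Dnajb1 higher in ANT (-0.66, 0.01), and 7 of the 9 were not called. The part of cell handling in the KLF spread was not tested.

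Genes that KLF2 is known to induce in T cells were lower in SAS in every library, in contrast to Klf2 itself. All 6 listed genes were higher in ANT with non-overlapping libraries, at a median log2 fold change of -1.23. Of all genes tested, 17.7% were called higher in ANT and 38.1% had non-overlapping libraries in either direction. S1pr1, the receptor for exit from lymphoid tissue, stood at 696, 823, 593 and 619 CPM in ANT and at 232, 218, 240 and 240 CPM in SAS, a log2 fold change of -1.55 (SE 0.12, edgeR adjusted p 6.1e-06). The 4 SAS libraries were thus nearly equal for S1pr1 while Klf2 differed 4.81-fold between them, and SAS replicate 3 had more Klf2 than ANT replicate 1 but 240 against 696 CPM of S1pr1. Log2 fold changes were -0.88 for the sphingosine phosphate receptor gene S1pr4 (adjusted p 0.000515), -1.25 for the integrin subunit Itgb7 (0.000512), -1.20 for Ccr7 (0.000164) and -3.40 for Prdm1, the gene of the Tfh antagonist Blimp1 (9.95e-06). Itgb7 alone of the 6 had the library order of Klf2, which 17.4% of all genes tested had. The part of KLF2 in these differences was not tested.

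**Figure D4:**
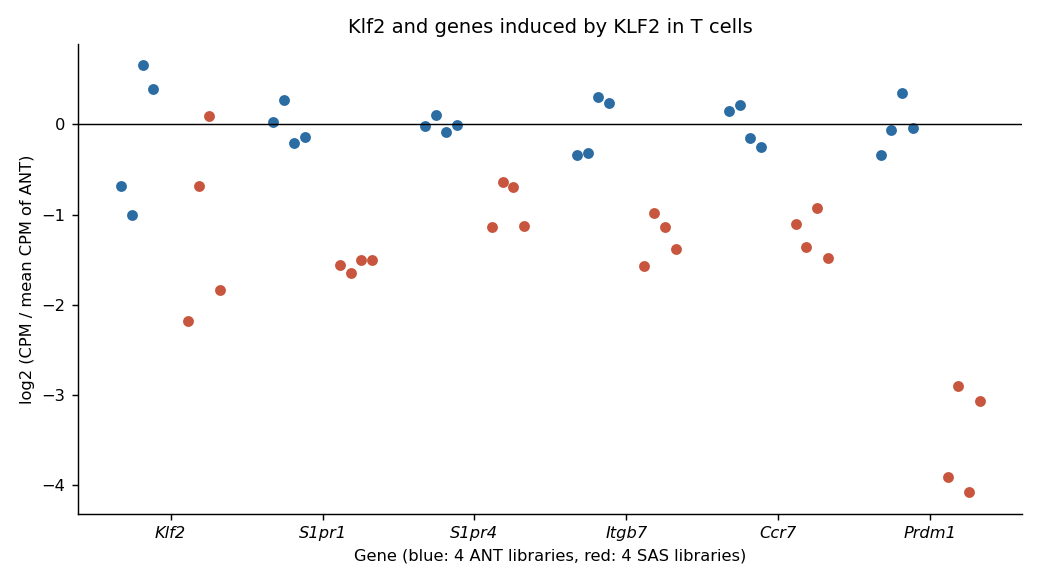
Log2 of CPM over the mean CPM of ANT (y axis) for Klf2 and 5 genes induced by KLF2 (x axis), with a point per library (ANT blue, SAS red, each in order of replicate number). The SAS points of S1pr1 lie between -1.65 and -1.51, while those of Klf2 run from -2.18 to 0.09 and overlap ANT.

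Genes that KLF2 is known to restrain were higher in SAS where they were called. Of the 4 listed, 3 were tested and 2 called, and 19.8% of all genes tested were called higher in SAS. The part of KLF2 in these differences was not tested. The follicle-homing receptor Cxcr5 had a log2 fold change of 6.54 (SE 0.33, edgeR adjusted p 3.43e-07) and the chemokine receptor Cxcr3 of 4.72 (SE 0.69, adjusted p 0.000403), with 240 counts in SAS and 8 in ANT. The Cxcr3 value rested on few ANT counts and was 6.12 without ANT replicate 5. Cd69, whose protein opposes S1PR1 at the surface, stood at 270 ± 111 CPM in ANT, against 460 ± 128 CPM in SAS (n = 4; log2 fold change 0.77, adjusted p 0.0553). Il4 had a single count in the series and was not tested.

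The 13 genes upstream of Klf2 came from the FOXO and AKT axis and the ERK5 and MEF2 axis. SAS was higher for 2, ANT for 2, and 9 did not pass, with a median log2 fold change of -0.10. Over all genes tested, 37.4% were called in either direction. Foxo1, which drives Klf2 transcription in T cells, stood at 328 ± 55.1 and 282 ± 62.7 CPM in the 2 clones (n = 4; log2 fold change -0.22, edgeR adjusted p 0.351). Mapk7, the gene of ERK5, stood at 30.7 ± 6.51 and 29.7 ± 3.21 CPM (log2 fold change -0.05, not called). Of those called, Map3k3, a kinase upstream of ERK5, was higher in ANT (log2 fold change -0.82, adjusted p 0.000957), while Akt2 was higher in SAS (0.51, 0.00926). Mef2c was higher in SAS but scarce, with a log2 fold change of 4.03 (adjusted p 0.00241), and 2.87 without SAS replicate 2. The order of libraries seen for Klf2 was found in 10 of the 13, Foxo1, Foxo3, Mapk7 and Mef2d among them, and in 17.4% of all genes tested.

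Of the 13 tested cofactors and ubiquitin ligases of KLF proteins, SAS was higher for 2, ANT for 2, and 9 did not pass. Their median log2 fold change was -0.07, and 37.4% of all genes tested were called in either direction. The deacetylase gene Hdac1, a partner of Sin3A, stood at 173 ± 8.74 CPM in ANT, against 274 ± 6.28 CPM in SAS (n = 4; log2 fold change 0.66, edgeR adjusted p 0.000166). Hdac3 followed with 0.31 (adjusted p 0.0344), a call that was lost when any of 6 libraries was left out, all but SAS replicates 2 and 3. The acetyltransferase gene Kat2b (-0.71, 0.000132) and Wwp1, whose product targets KLF2 for degradation (-0.86, 0.00111), were higher in ANT. For the corepressor genes of KLF3, KLF10 and KLF13, Ctbp1 stood at 173 ± 38.3 and 194 ± 24.9 CPM and Sin3a at 171 ± 4.86 and 164 ± 4.76 CPM in ANT and SAS (adjusted p 0.458 and 0.594).

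Among 18 other KLF and SP genes, 9 were tested. SAS was higher for 2, ANT for 3, and 4 did not pass, with a median log2 fold change of -0.46. Over all genes tested, 37.4% were called in either direction. Sp3 (368 ± 32.5 against 203 ± 12.9 CPM, n = 4, log2 fold change -0.86, edgeR adjusted p 8.91e-05), Sp4 (-0.86, 0.00548) and Sp1 (-0.30, 0.0228) were higher in ANT. Klf9, a glucocorticoid-inducible member, stood at 0.406 ± 0.279 CPM in ANT, against 2.45 ± 1.22 CPM in SAS (log2 fold change 2.58, adjusted p 0.0034). Klf8 was at 1.89 ± 0.193 and 3.07 ± 0.347 CPM (0.70, 0.0179), a call lost without ANT replicate 1 (0.0534) or ANT replicate 4 (0.0549). Klf11, the closest relative of Klf10, stood at 12.3 ± 4.39 CPM in ANT, against 6.62 ± 2.81 CPM in SAS (log2 fold change -0.89, adjusted p 0.0669), with its sign opposite to that of Klf10. Klf14, Klf17 and Sp5 had 0 counts in all 8 libraries.

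**Figure D5:**
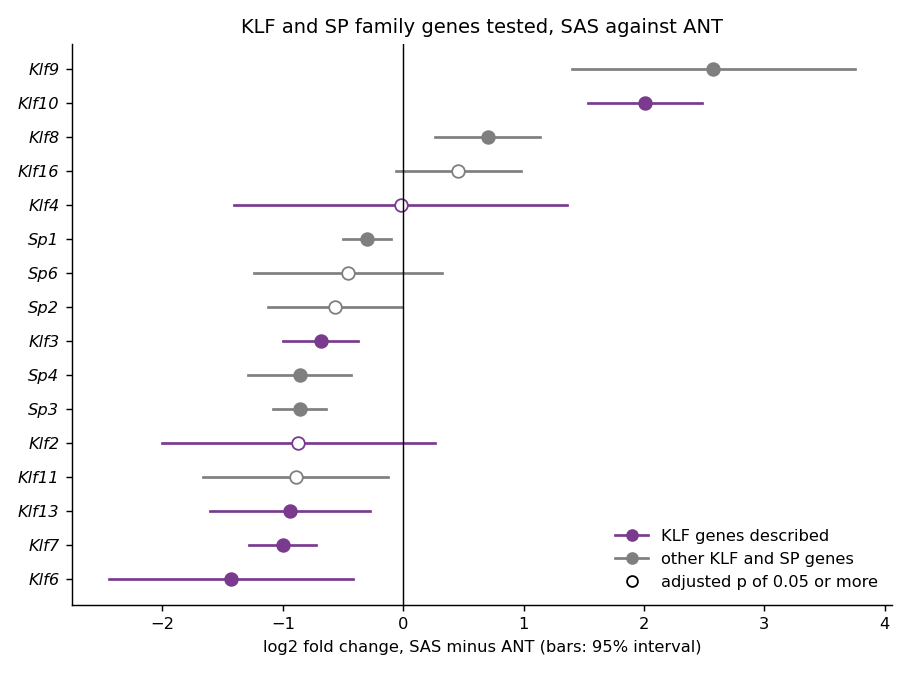
Log2 fold change, SAS minus ANT (x axis), with its 95% interval (bar) for the 16 tested KLF and SP genes (y axis); filled points are called at an adjusted p under 0.05. Klf10, Klf9, Klf8 and Klf16 lie to the right of 0. Klf3, Klf6, Klf7 and Klf13 lie to the left, and the intervals of Klf2, Klf4, Klf16 and Sp6 include 0.

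RefSeq promoters on GRCm38.p6 were listed for 7 of the 8 members. The 250 bases before the start of Klf2, Klf4, Klf6 and Klf13 are shown because these 4 members varied most in the library order described above, with capitals for matches, on either strand, of a MEF2 site, of CCAAT and of TGACG, the core of the CREB site. They lie at chr8:72318812-72319061 (plus strand), chr4:55532476-55532725 (minus), chr13:5861239-5861488 (plus) and chr7:63938916-63939165 (minus).
Klf2: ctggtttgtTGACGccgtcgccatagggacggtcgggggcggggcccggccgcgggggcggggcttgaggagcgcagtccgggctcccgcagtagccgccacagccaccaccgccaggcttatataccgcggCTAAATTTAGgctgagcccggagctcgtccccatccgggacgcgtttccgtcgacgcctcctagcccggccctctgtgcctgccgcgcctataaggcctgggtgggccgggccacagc
Klf4: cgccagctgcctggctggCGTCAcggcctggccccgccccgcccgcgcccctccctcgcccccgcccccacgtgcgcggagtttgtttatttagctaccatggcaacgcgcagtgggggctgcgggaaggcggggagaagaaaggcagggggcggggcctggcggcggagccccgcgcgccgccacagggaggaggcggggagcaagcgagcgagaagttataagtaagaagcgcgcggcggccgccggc
Klf6: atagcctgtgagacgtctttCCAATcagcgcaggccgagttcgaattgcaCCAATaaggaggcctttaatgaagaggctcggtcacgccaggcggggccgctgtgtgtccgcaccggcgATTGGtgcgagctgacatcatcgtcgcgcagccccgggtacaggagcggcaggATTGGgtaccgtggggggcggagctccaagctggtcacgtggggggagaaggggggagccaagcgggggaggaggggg
Klf13: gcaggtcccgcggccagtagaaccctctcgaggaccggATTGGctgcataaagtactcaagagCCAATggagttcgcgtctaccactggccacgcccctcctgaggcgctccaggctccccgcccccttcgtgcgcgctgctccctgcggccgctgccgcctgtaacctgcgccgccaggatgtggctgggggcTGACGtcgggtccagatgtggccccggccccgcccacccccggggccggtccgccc
The Klf2 promoter held a MEF2 match at bases -118 to -109, counted back from the start, and 2.92% of the 32851 promoters in the table held such a match over the same 250 bases. TGACG stood once in Klf2, Klf4 and Klf13 and in 17.8% of all promoters. CCAAT stood at 4 places in Klf6 and 2 in Klf13 and in 33.8% of all promoters. The GC box GGGCGG stood at 2, 4, 1 and 3 places in Klf2, Klf4, Klf6 and Klf13, and in 32.7% of all promoters. CACCC, the letters KLF proteins bind, stood at 1, 0, 0 and 1 places, and in 52.0% of all promoters. Klf3 and Klf7, the members with the least spread, held CACCC at 5 and 3 places and GGGCGG at 6 and 1. The serum response motif (CArG box) and TGACGTCA were found in none of the 7 listed members. The motifs were chosen with the sequences in view, and a match is a description of letters, not of a bound factor.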

How the data were processed

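RNA of sorted CD4+ T cells was sequenced from strand-specific TruSeq mRNA libraries, per the labels' protocols. The authors deposited a table of raw counts for 39056 Ensembl genes and 8 libraries. STAR, featureCounts and mm10 are named in the submitters' processing notes, and the versions, annotation release, strand setting and handling of multi-mapped reads are not given in the sources used here. Symbols, coordinates and exon lengths came from GENCODE M21 (same build), which matched 38872 IDs without the version suffix.

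The test of the 12619 genes past edgeR's default filter used edgeR 4.0.16 and R 4.3.3 (TMM scaling, robust quasi-likelihood test, SAS against ANT, no covariate), and the Benjamini-Hochberg adjustment covered all genes tested. CPM are counts scaled to the TMM-adjusted library size. The SE is the log2 fold change, without its sign, over the square root of F, and 95% intervals use the moderated degrees of freedom. Spread and likeness use log2 CPM with a prior count of 2. The script was tested on simulated data. Alternatives were other scalings and filters, DESeq2 1.42.0, limma-voom (limma 3.58.1), a test against a fold of 1.5, left-out libraries and a replicate block.

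The members, lists and alternatives were chosen with earlier results of these data known. Named genes were all members, at most 4 called genes of each other list with the smallest p (every gene of both KLF2 target lists), and the 5 genes nearest in pattern to each member in the top 10% of spread. Others, such as Klf11, Foxo1, Mapk7, Ctbp1 and the heat shock genes, were picked after their values were seen. Some genes that the list counts include are not reported here by name.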

Additional observations from a re-analysis of the deposited data

Results flagged for a closer look

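In SAS replicate 2, Mef2c stood at 5.96 CPM, far from the 0.792 to 1.16 CPM of the other 3 SAS libraries. Of 94 groups of 4 libraries examined for such a gap, 1 had it, and chance gives about 5% of groups. Summed CPM of plasma cell and myeloid markers was also highest in that library in SAS, at 14.2 and 10.3, against 3.41 to 5.03 and 4.18 to 5.40 in the other 3, and the part of other cells in the Mef2c value was not tested.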

How the results depend on the processing

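Klf7 and Klf10 kept their direction and call in all 19 alternatives, and Klf3 in all but the test against a fold of 1.5; Klf2 and Klf4 were called in none. Klf6 was called in 9 of 19 and Klf13 in 12. Against a fold of 1.5, 2 members were called (1 higher in ANT), 13 of the list genes, and 1836 of all genes (1205 higher in SAS, 631 in ANT). Without ANT replicates 4 and 5, 3 members were called, 2 of them higher in ANT. With no low-count filter 2 members, Klf10 and Klf12, were higher in SAS. Leaving out 1 library at a time gave 3 to 5 members called, 2 to 4 of them higher in ANT. SAS-higher genes were 52.8% of calls with TMM scaling and 64.8% with library size only, which moved the median log2 fold change of all genes from -0.00 to 0.09.

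Some signs turned for genes that were not called in the full comparison. Klf4 went from -0.02 to 0.067 with library size only, 0.37 with the replicate block and 0.59 without ANT replicates 4 and 5, and ran from -0.42 to 0.32 with 1 library left out. Rhob gave 0.056, 0.46 and 0.53 in the same 3 settings and -0.31 to 0.21, and Prr7 gave 0.046, 0.24 and 0.39 and -0.50 to 0.22. Jund was 0.13 with the replicate block and 0.20 without ANT replicates 4 and 5. Without ANT replicates 1 and 3, Sik1 was -0.059, Hspa1a 1.44 and Hspa1b 0.93. The cause was not tested.

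The replicate block takes the clone difference from replicates 1 and 3, the numbers both clones share, and nothing in the labels pairs them. Every other number occurs in a single clone, so this fit has very little left from which to measure spread. Its calls are among the alternatives counted above and are no further support. Under the block 4 members were called (Klf3, Klf7, Klf10 and Klf13) and 5798 of all genes, and Klf6 was not (-1.01, adjusted p 0.678). Deviations of the same-numbered libraries correlated across genes at 0.29 for replicate 1 and -0.12 for replicate 3. Depth limits Klf12, Klf8, Klf9, Cxcr3 and Mef2c, which had few counts in ANT.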
